A study of Homo sapiens with 22 samples.

Results

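The 34 genes described here are established transcriptional targets of the tumour suppressor p53, chosen by name for their known roles in cell cycle arrest, DNA repair, cell death, metabolism and secretion. Their RNA was read from all probes of the Illumina HumanRef-8 v3 bead array whose annotated symbol was one of the 34 names, with TIGAR found under its older symbol C12orf5. In all, 32 of the 34 genes had a matched probe, together 40 of the 24526 probes and 32 of the 16922 genes named on the array. BTG2 and FDXR were not analysed here. RPS27L, a ribosomal protein-like gene, had a single probe that was above background on 1 of 22 arrays, and it was not tested. That left 31 genes with 37 probes among the 16563 probes tested. A gene with several tested probes is represented by the brightest one on average, and the other probes are given where they disagree.

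The p53 protein is a DNA-binding transcription factor that is kept scarce by ubiquitin ligases, above all MDM2, itself a product of a p53 target gene. COP1, a RING-type ubiquitin ligase, is also known to bind p53 and promote its degradation. When p53 accumulates after DNA damage or other stress, it binds sequence elements made of paired decamers near its target genes and raises their transcription. Most of these genes are also controlled by other factors, among them stress-activated and growth-responsive ones.

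The question a comparison of these groups addresses is how the RNA of p53 targets stood after loss of COP1. The cells were labelled Hep3B, Huh7 and HepG2, which are names of lines from human liver tumours. They were transfected with 15 nM of COP1 siRNA or with a negative control siRNA, and RNA was taken after 48 h. There were 4 arrays per siRNA for Hep3B and for HepG2 and 3 per siRNA for Huh7, 22 arrays in 6 groups. All 6 groups, controls included, had been transfected, and all were grown in the same serum-supplemented medium. The labels name the siRNA by its target alone. Nothing says that replicates came from separate cultures, so p-values measure the spread between these arrays only, which may be technical.

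Several features of the arrays bear on what follows. Within each line, the COP1 siRNA arrays all had less COP1 RNA than the controls did, with means of 513 against 2356 intensity units on the Hep3B-labelled arrays, 279 against 1801 in Huh7 and 409.7 against 1586 in HepG2. The arrays labelled Hep3B went against their label. Of 11 hepatocyte markers with a probe (13 were listed), 8 were above background on 0 of 8 of these arrays, namely ALB, APOA1, APOB, APOH, FGB, FOXA2, TF and TTR. The other 3, AFP, AHSG and SERPINA1, were above background on 8 of 8 of them. The fetal liver protein gene AFP reached at most 157 there, against at least 12043 on every Huh7 and HepG2 array. SERPINA1 reached at most 89.0 there, against at least 1344 in Huh7 and 21056 in HepG2. AHSG lay nearest to Huh7, at 30.1 to 68.6 there, against 70.2 to 202 in Huh7 and 5945 to 7380 in HepG2. The summed level of the 11 markers was 170 to 266 on Hep3B-labelled COP1 siRNA arrays and 140 to 259 on their controls, 63350 to 88578 and 79963 to 84522 in Huh7, and 142003 to 147164 and 150504 to 156369 in HepG2. These arrays are called Hep3B-labelled throughout. Replicate 3 of the Huh7 COP1 siRNA group also stood apart, with a root mean square deviation from its group mean of 0.411 on the log2 scale, against 0.12 to 0.27 on the other 21 arrays.

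**Figure D1:**
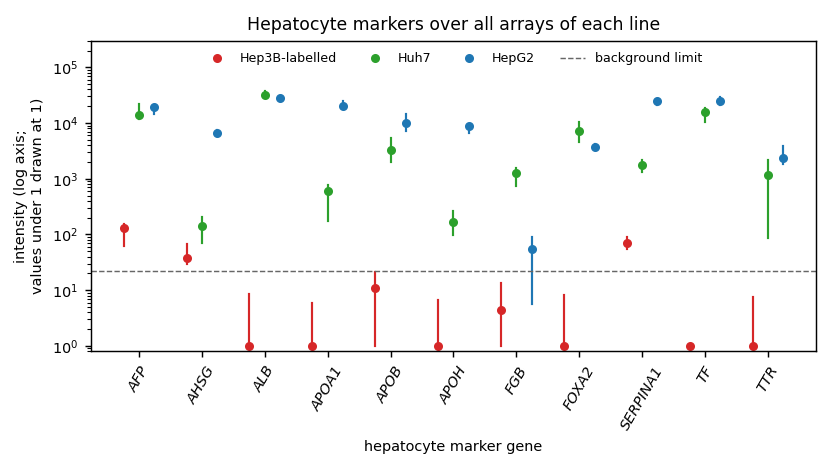
Intensity (log axis) of 11 hepatocyte marker genes, with a point at the median and a line from the lowest to the highest array, over all 8 Hep3B-labelled, 6 Huh7 and 8 HepG2 arrays. The dashed line is the background limit of 21.8. Of the Hep3B-labelled arrays, all lie under the limit for 8 of the 11 genes.

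A promoter comparison shows where the p53 decamer consensus lies in the members' own sequence. Promoter windows of 250 bases before to 50 bases after the start were found for 29 of the 34 genes in RefSeq (GRCh38.p14). The exact p53 decamer consensus, which reads the same class of letters on both strands, was present in the windows of AEN, FDXR, PLK2 and RPS27L, that is 4 of 29 windows (13.79%), against 1786 of 27305 windows of all genes (6.541%). A full element, a pair of such decamers no more than 13 bases apart, was present in 0 of the 29 and in 8 of all 27305. The 250 bases before the start are printed for PLK2 and AEN, which hold a decamer, and for TRIAP1 and TP53I3, which hold none and rose in HepG2. Capitals mark the decamer, which begins 132 bases before the start in PLK2 and 34 bases before it in AEN. The windows are chr5:58460087-58460336 (minus strand), chr15:88621090-88621339 (plus strand), chr12:120446385-120446634 (minus strand) and chr2:24084835-24085084 (minus strand) in GRCh38.p14.
PLK2: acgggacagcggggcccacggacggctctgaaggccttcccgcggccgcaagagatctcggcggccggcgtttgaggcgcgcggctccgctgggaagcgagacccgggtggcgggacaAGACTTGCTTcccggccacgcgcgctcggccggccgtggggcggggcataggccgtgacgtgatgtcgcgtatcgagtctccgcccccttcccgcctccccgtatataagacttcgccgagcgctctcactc
AEN: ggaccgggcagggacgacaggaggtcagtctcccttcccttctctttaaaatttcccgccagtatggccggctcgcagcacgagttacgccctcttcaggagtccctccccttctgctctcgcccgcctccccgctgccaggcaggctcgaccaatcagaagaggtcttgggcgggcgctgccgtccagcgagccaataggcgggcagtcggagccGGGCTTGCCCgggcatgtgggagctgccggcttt
TRIAP1: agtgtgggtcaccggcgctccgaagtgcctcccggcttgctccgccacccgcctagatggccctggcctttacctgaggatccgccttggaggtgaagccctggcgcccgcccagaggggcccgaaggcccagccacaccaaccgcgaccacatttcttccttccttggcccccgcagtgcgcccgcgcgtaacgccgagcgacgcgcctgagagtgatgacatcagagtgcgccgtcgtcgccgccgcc
TP53I3: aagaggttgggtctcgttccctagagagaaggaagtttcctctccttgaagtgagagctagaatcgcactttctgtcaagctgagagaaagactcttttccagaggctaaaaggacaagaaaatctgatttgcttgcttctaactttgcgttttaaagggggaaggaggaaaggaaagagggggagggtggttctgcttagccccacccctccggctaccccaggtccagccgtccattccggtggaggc
A match is a description of these letters, and no match says only that the letters are not in this window.

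In control cells, the 31 tested members were lowest in Huh7 more often than in the other lines. Of the 31 members, 16 were lower in Huh7 than in both other lines by limma at an adjusted p under 0.05, where 18.0% of all probes tested had that pattern. The Hep3B-labelled controls were highest for 11 members (24.1% of all probes), and HepG2 controls for 7 (15.2%). Huh7 was highest for GDF15 and KITLG (19.0% of all probes), the Hep3B-labelled arrays were lowest for 4 (18.5%), and HepG2 was lowest for 0 of 31 (11.7%). Pair by pair, 2 members were higher and 18 lower in Huh7 than in HepG2, where 58.9% of all probes passed (28.1% higher and 30.8% lower). Against HepG2, 12 were higher and 11 lower on the Hep3B-labelled arrays, where 63.5% of all probes passed (33.4% higher and 30.1% lower). Against Huh7, 21 were higher and 5 lower on them, where 68.7% of all probes passed (36.8% higher and 31.9% lower). CDC42EP3, counted as higher there in both pairs, was above background on no Huh7 or HepG2 array. It passed the filter only through the Hep3B-labelled arrays, so its direction in these counts was fixed by that filter. PHLDA3, among the 16 lowest in Huh7, was above background on no Huh7 array. It passed the filter only through the other lines, so its direction against Huh7 in these counts was fixed in the same way. SPATA18, also among the 16, was above background on no Huh7 control array. The median log2 difference over the 31 members was -0.46 for Huh7 against HepG2 (all probes -0.036), -0.00032 for Hep3B-labelled against HepG2 (0.034) and 0.67 for Hep3B-labelled against Huh7 (0.053). The members' shares can be read only against those backgrounds, since most probes on the array differed between these lines.

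**Figure D2:**
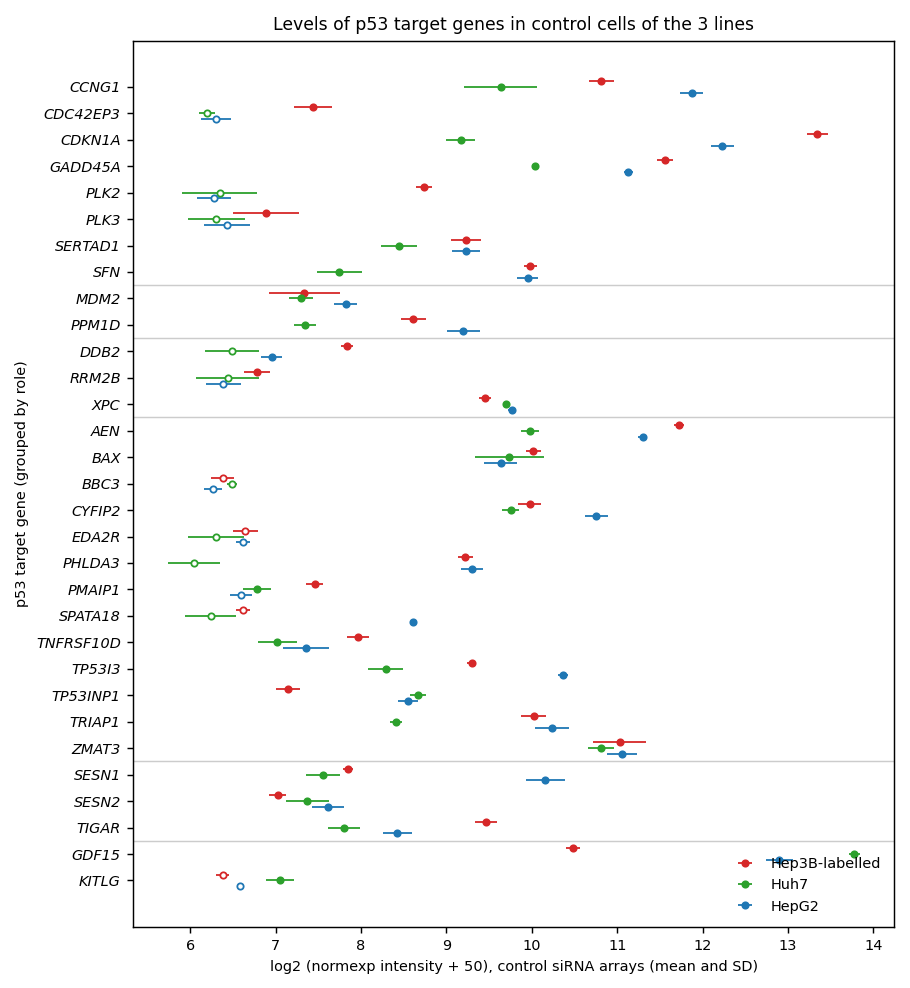
Level of each of the 31 tested p53 targets on control siRNA arrays, as the mean and SD of log2 (normexp intensity + 50), for 4 Hep3B-labelled, 3 Huh7 and 4 HepG2 arrays, with genes grouped by role. Open points mark groups in which at least 1 array was not above background. CDKN1A spans the widest range of the 31, and GDF15 runs in the opposite order.

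Among the cell cycle arrest genes, the widest gap was that of CDKN1A (probe ILMN_1784602), which encodes the cyclin-dependent kinase inhibitor p21. Its control intensities were 11397, 10742, 9805 and 9480.5 on the Hep3B-labelled arrays, 449, 479 and 582 in Huh7 and 4522, 4685, 5406 and 4382 in HepG2. The 3 groups did not overlap. The log2 difference was 4.18 ± 0.12 (SE) for Hep3B-labelled against Huh7 (adjusted p = 3.8e-19) and -3.06 ± 0.12 for Huh7 against HepG2 (adjusted p = 2.2e-16). The Hep3B-labelled arrays exceeded HepG2 by 1.11 ± 0.11 on this probe (adjusted p = 3.3e-09), while a dimmer second probe gave -0.17 ± 0.10 (adjusted p = 0.15), so the order of these groups depends on the probe. That second probe was above background on 0 of 3 Huh7 controls. SFN, the cell cycle inhibitor 14-3-3 sigma, averaged 938 ± 50.7, 142 ± 38.3 and 919 ± 83.6 (SD, n = 4, 3 and 4) on Hep3B-labelled, Huh7 and HepG2 controls. It was lower in Huh7 than in HepG2 by 2.21 (adjusted p = 2.1e-13), and the Hep3B-labelled and HepG2 groups overlapped. CCNG1, cyclin G1, averaged 1730.2 ± 179, 743 ± 235 and 3689 ± 340.2, and it was highest in HepG2 in both tests. GADD45A, a growth arrest and DNA damage protein, averaged 2949 ± 187, 973 ± 20.2 and 2166 ± 78.8, in the same line order as CDKN1A's brighter probe. The kinase gene PLK2 was above background on 4 of 4 Hep3B-labelled controls, 1 of 3 Huh7 controls and 0 of 4 HepG2 controls. It was at least 4.40-fold higher on the Hep3B-labelled arrays than in HepG2 (adjusted p = 3.4e-13), a bound set against the dimmest signal counted as above background.

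Both feedback genes, which encode proteins that hold p53 down, were highest in HepG2. PPM1D, the phosphatase WIP1, averaged 317 ± 39.9, 87.4 ± 14.5 and 515 ± 75.5 (SD, n = 4, 3 and 4) in Hep3B-labelled, Huh7 and HepG2 controls. The ubiquitin ligase gene MDM2 averaged 91.5 ± 46.8, 82.6 ± 14.7 and 151 ± 21.9 in the same order. MDM2 passed against HepG2 from both sides, although single Hep3B-labelled and HepG2 arrays overlapped. Hep3B-labelled and Huh7 controls did not differ in MDM2 beyond their spread, with a log2 difference of 0.04 ± 0.16 (adjusted p = 0.83). DDB2, a subunit of a UV damage sensor, was highest on the Hep3B-labelled arrays at 153 ± 10.9 and reached 16.3 ± 19.9 in Huh7 and 48.9 ± 10.1 in HepG2. The Huh7 mean of DDB2 was under the background limit, with 1 of 3 controls above it. XPC, a damage recognition protein of nucleotide excision repair, had 626 ± 32.1, 758 ± 13.3 and 795 ± 26.9, with the Hep3B-labelled arrays lowest in both tests. Against Huh7 that call was lost without Huh7 replicate 2 or 3 or Hep3B-labelled replicate 4 (adjusted p up to 0.0878).

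The cell death genes held the largest fold gaps that were bounds. PHLDA3, an inhibitor of the kinase Akt, was above background on 4 of 4 Hep3B-labelled controls and 4 of 4 HepG2 controls but 0 of 3 in Huh7. It was at least 6.15-fold higher on the Hep3B-labelled arrays than in Huh7 (adjusted p = 3.4e-16), and at least 6.49-fold lower in Huh7 than in HepG2 (adjusted p = 3.9e-16). Since the direction of PHLDA3 against Huh7 was fixed by the filter, these p-values add nothing on that direction. SPATA18, a mitochondrial quality control gene, had 309.8, 302, 320.2 and 323 intensity units in HepG2 and lay above background on 2 of 4 Hep3B-labelled and 0 of 3 Huh7 controls. TP53I3, the quinone oxidoreductase PIG3, averaged 553 ± 24.4, 239 ± 44.1 and 1245 ± 49.9 (SD, n = 4, 3 and 4) in Hep3B-labelled, Huh7 and HepG2 controls, all 3 apart. Its dim second probe did not pass in any pair. AEN, an apoptosis-enhancing nuclease, and TRIAP1, a small inhibitor of apoptosis, were lowest in Huh7, at 932 ± 72.7 and 264 ± 16.4. TP53INP1, an autophagy and cell death protein, ran the other way and averaged 66.8 ± 13.6 on Hep3B-labelled controls, 331 ± 26.2 in Huh7 and 300.5 ± 30.3 in HepG2. BBC3, which encodes the BH3-only protein PUMA, was above background on 0 of 11 control arrays. For the pore-forming protein gene BAX, Huh7 and HepG2 did not differ beyond their spread on the brightest probe (0.10 ± 0.15, adjusted p = 0.58), whereas a dimmer probe was lower in Huh7 (-0.60 ± 0.12, adjusted p = 0.00018). That dimmer BAX probe averaged 346 ± 40.4, 64.6 ± 14.9 and 137 ± 25.7 on Hep3B-labelled, Huh7 and HepG2 controls. The brightest averaged 961, 800 and 725. CYFIP2, counted as highest in HepG2, averaged 934 ± 99.1, 788 ± 62.5 and 1660 ± 158 in that order on its brightest probe. A dimmer CYFIP2 probe averaged 29.9 ± 5.17, 141 ± 10.4 and 154 ± 15.7, with Huh7 and HepG2 overlapping, so this order depends on the probe.

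Metabolic and secreted targets also differed by line. SESN1, a sestrin that restrains growth signalling, was highest in HepG2, with 155 ± 9.0, 114 ± 25.2 and 1079 ± 169.7 (SD, n = 4, 3 and 4) on Hep3B-labelled, Huh7 and HepG2 controls. Its paralog SESN2 had 55 ± 9.47, 92 ± 29.8 and 121 ± 26.7, lowest on the Hep3B-labelled arrays. TIGAR, a phosphatase that lowers glycolysis, was highest there at 632 ± 63.4, against 149 ± 29.9 in Huh7 and 270.1 ± 39.9 in HepG2. GDF15 (probe ILMN_2188862), a stress-induced secreted cytokine, had 1287, 1284, 1431 and 1415 on the Hep3B-labelled controls, 13526, 14690.5 and 13712 in Huh7 and 6463, 8305, 7976 and 7651 in HepG2. None of these groups overlapped. The log2 difference was -3.3 ± 0.11 for Hep3B-labelled against Huh7 (adjusted p = 1.1e-17) and 0.88 ± 0.11 for Huh7 against HepG2 (adjusted p = 2.7e-07). KITLG, the ligand of the KIT receptor, was above background on 3 of 3 Huh7 controls, 1 of 4 in HepG2 and 0 of 4 Hep3B-labelled ones. Most baseline calls held under all alternatives, 17 of 20 for Huh7 against HepG2, 20 of 23 for Hep3B-labelled against HepG2 and 19 of 26 for Hep3B-labelled against Huh7. Among the 16 members lowest in Huh7, EDA2R, an ectodysplasin receptor, was above background on 2 of 4 Hep3B-labelled, 1 of 3 Huh7 and 1 of 4 HepG2 controls. Its call for Huh7 against HepG2 was lost when any 1 of 8 control arrays was left out (adjusted p up to 0.977 over all alternatives). The same call of TNFRSF10D was lost without Huh7 replicate 1 or 2 or HepG2 replicate 3 or 4 (up to 0.179). For Hep3B-labelled against Huh7, SESN1 was lost without Huh7 replicate 1 or Hep3B-labelled replicate 1, 2 or 3 (up to 0.252), and SESN2 without Huh7 replicate 3 or Hep3B-labelled replicate 4 (up to 0.16). Leaving out a control array also ended calls of RRM2B and PLK3 (Hep3B-labelled against HepG2), BAX (the same pair), and RRM2B, SPATA18 and EDA2R (Hep3B-labelled against Huh7). In bulk RNA, fewer cells expressing a gene and less RNA per cell cannot be told apart.

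After COP1 siRNA, p53 targets moved in both directions in each line. On the Hep3B-labelled arrays, 15 of 31 members passed at an adjusted p under 0.05, 10 higher and 5 lower, where 26.4% of all probes passed (13.6% higher and 12.8% lower). In Huh7, 8 passed, 4 higher and 4 lower, where 8.88% of all probes passed (3.85% higher and 5.02% lower). In HepG2, 9 passed, 6 higher and 3 lower, where 22.8% of all probes passed (11.5% higher and 11.3% lower). The COP1 siRNA and control arrays did not overlap for 15 members on the Hep3B-labelled arrays (26.9% of all probes), 17 in Huh7 (32.4%) and 10 in HepG2 (23.8%). The members' median log2 fold change was 0.18 on the Hep3B-labelled arrays (all probes -0.0086), 0.21 in Huh7 (0.014) and 0.11 in HepG2 (0.016). In all, 21 members passed in at least 1 line (44.1% of all probes) and 9 in at least 2 (12.1%). GDF15 was the 1 of 31 members that passed in all 3 lines in the same direction, where 1.46% of all probes did so. It was lower in each line. TP53INP1 also passed in all 3, lower in Huh7 and HepG2 and higher on the Hep3B-labelled arrays. TP53INP1, PLK2, TP53I3 and CYFIP2 passed in opposite directions in different lines, 4 of 31 members against 4.94% of all probes.

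**Figure D3:**
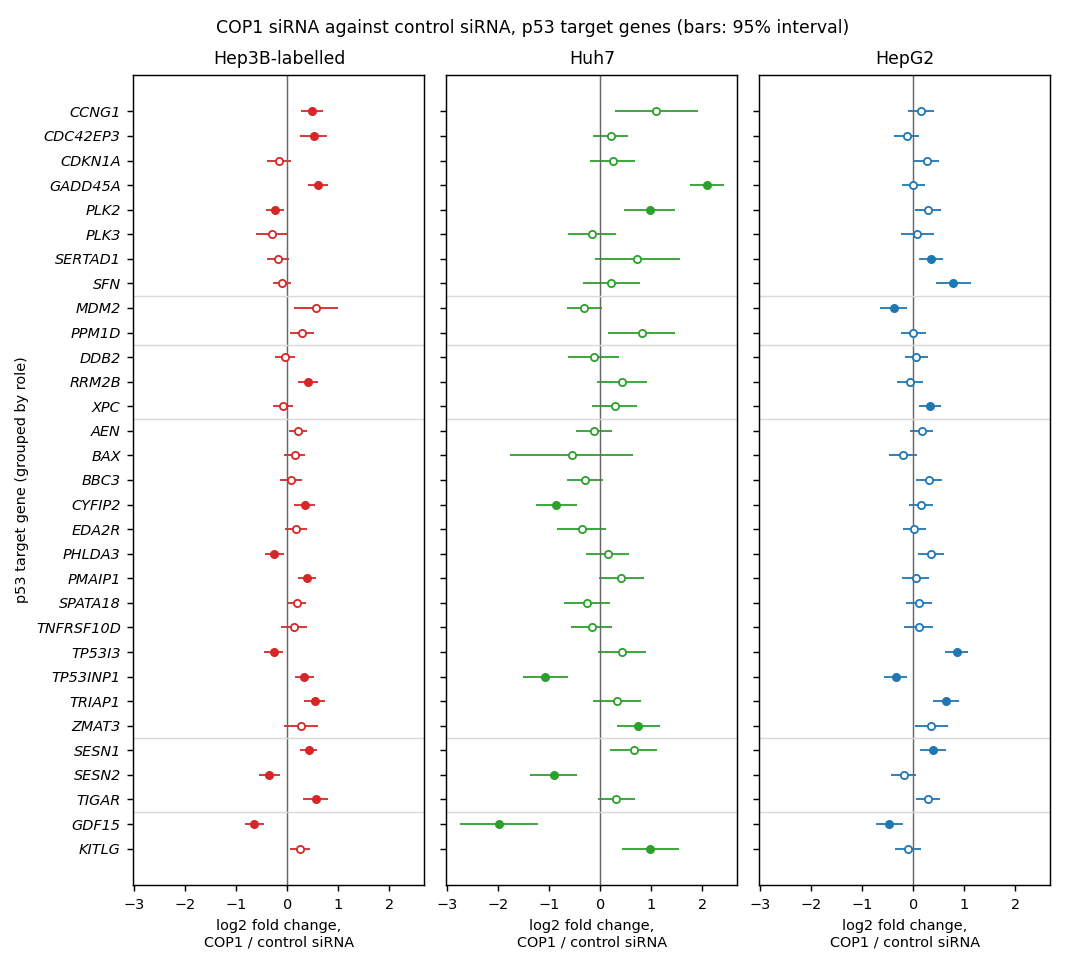
Log2 fold change of COP1 siRNA over control siRNA for the 31 tested p53 targets in Hep3B-labelled, Huh7 and HepG2 cells, with genes grouped by role. Bars are 95% intervals from limma, and filled points have an adjusted p under 0.05. GADD45A in Huh7 (2.09) and GDF15 in Huh7 (-2.0) are the extremes.

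GADD45A (probe ILMN_2052208) was the largest rise among the cell cycle arrest genes. In Huh7 it had 4089, 4539 and 4586 intensity units after COP1 siRNA, against 985, 984 and 949 after control siRNA. The Hep3B-labelled arrays had 4434, 5072, 4106 and 4434, against 2894, 2712, 3055 and 3135 in their controls. In HepG2 it had 2423, 1915, 2057 and 2302, against 2211, 2063, 2241 and 2148 in controls. COP1 siRNA arrays lay above all controls in Huh7 and on the Hep3B-labelled arrays and overlapped with them in HepG2. The log2 fold change was 0.60 ± 0.09 on the Hep3B-labelled arrays (n = 4 and 4, adjusted p = 0.0001), 2.09 ± 0.15 in Huh7 (n = 3 and 3, adjusted p = 0.00038) and 0.00051 ± 0.11 in HepG2 (n = 4 and 4, adjusted p = 1). In HepG2 the 95% interval ran from -0.23 to 0.23. Control Huh7 cells had held the least GADD45A RNA of the 3 lines. The same control arrays enter the Huh7 fold change, so level and fold change are not independent, and a link between them was not tested.

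CDKN1A, with the widest range at baseline, did not pass in any line. COP1 siRNA arrays had 8025, 9147, 8474 and 11693 (Hep3B-labelled), 737, 646 and 466 (Huh7) and 5571, 6555, 5699.8 and 4998 (HepG2), which overlapped with the controls given above in each line. The fold change was -0.16 ± 0.11 on the Hep3B-labelled arrays, 0.24 ± 0.20 in Huh7 and 0.26 ± 0.12 in HepG2 (adjusted p = 0.33, 0.49 and 0.11), with 95% intervals of -0.40 to 0.076, -0.20 to 0.69 and 0.02 to 0.50. A doubling, a log2 change of 1, lies outside each of these intervals. The second CDKN1A probe did not pass in any line either.

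PLK2, a stress-responsive polo-like kinase, went up in Huh7 and down on the Hep3B-labelled arrays. Huh7 arrays had 74.8, 94.3 and 81.8 after COP1 siRNA, against -14.8, 35.9 and 4.95 after control siRNA, of which 1 of 3 was above background. The Hep3B-labelled arrays had 288, 293, 287 and 280.4, against 324, 338, 389 and 358. The groups did not overlap in either line. The fold change was -0.24 ± 0.08 on the Hep3B-labelled arrays (adjusted p = 0.046) and 0.96 ± 0.22 in Huh7 (adjusted p = 0.032). With most Huh7 controls at background, the size of the Huh7 value depends on the offset and ran from 0.75 to 1.69 over the alternatives. HepG2 arrays were mostly at background, with 1 of 4 above it after COP1 siRNA and 0 of 4 in controls.

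CCNG1 rose on the Hep3B-labelled arrays, with 2799, 2503, 2247 and 2247 after COP1 siRNA, against 1610.0, 1546, 1854 and 1911 in controls (0.48 ± 0.10, adjusted p = 0.0015). CCNG1 in Huh7 was 1122, 1268 and 2978, against 982, 734 and 512, without overlap, but replicate 3 of the COP1 siRNA group was far above the others and the fold change of 1.1 ± 0.36 did not pass (adjusted p = 0.094). In HepG2 the groups overlapped, at 4019, 3328, 4360.2 and 4787 after COP1 siRNA and 3832, 4006, 3213 and 3706 in controls. SFN rose in HepG2, where all COP1 siRNA arrays were above all controls. It had 1698, 2582, 1329.8 and 1207 there after COP1 siRNA, against 942, 1014, 813 and 908 in controls (0.78 ± 0.16, adjusted p = 0.0011). Elsewhere SFN had 860.0, 897, 850.4 and 829 against 929, 875, 996 and 953 on the Hep3B-labelled arrays and 239, 205 and 99 against 101, 177 and 147 in Huh7, and neither passed.

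SERTAD1, a regulator of cyclin-dependent kinase 4, rose in HepG2 to 649, 731, 668 and 719, against 541, 509, 616 and 447 in controls (0.35 ± 0.11, adjusted p = 0.027). Huh7 arrays had 811, 651 and 219 after COP1 siRNA and 245, 246 and 337 in controls, and the array that stood apart, replicate 3, was the lowest of the 6. On the Hep3B-labelled arrays the groups overlapped, at 391, 465, 488 and 480.0 and 626, 541, 444 and 504. CDC42EP3, an effector of the GTPase CDC42, was measurable only on the Hep3B-labelled arrays, being above background on 0 of 6 Huh7 and 0 of 8 HepG2 arrays. It had 211, 178, 183 and 123 there after COP1 siRNA, against 85.5, 69.4, 116 and 126 in controls (0.51 ± 0.12, adjusted p = 0.0046), and 1 COP1 siRNA array lay within the range of the controls. PLK3, a further stress kinase of this family, did not pass in any line.

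The feedback genes gave 1 call, MDM2 in HepG2. There MDM2 had 103, 57, 130.4 and 109 after COP1 siRNA, against 136, 184, 140.1 and 146 in controls, with no overlap (-0.39 ± 0.13, adjusted p = 0.034). MDM2 on the Hep3B-labelled arrays was 209, 214, 191 and 68.9, against 46.3, 56.5, 138 and 126, with 1 low COP1 siRNA array inside the control range (0.55 ± 0.20, adjusted p = 0.055). MDM2 in Huh7 was 50.6, 45.5 and 58.6, against 66.5, 95.4 and 85.9, all lower after COP1 siRNA but short of the threshold (-0.31 ± 0.15, adjusted p = 0.25). PPM1D had fold changes of 0.28 ± 0.11 on the Hep3B-labelled arrays, 0.81 ± 0.29 in Huh7 and -0.0011 ± 0.12 in HepG2, none of which passed (adjusted p = 0.068, 0.13 and 1).

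Among repair genes, XPC rose in HepG2 and RRM2B on the Hep3B-labelled arrays. XPC had 1144, 925, 980.3 and 1027 after COP1 siRNA in HepG2, against 826, 794, 801 and 761 in controls (0.33 ± 0.11, adjusted p = 0.031). Every COP1 siRNA array was above every control. Elsewhere XPC had 591, 497, 579 and 674 against 636, 630.1, 656 and 581 on the Hep3B-labelled arrays and 778, 842 and 1248 against 742, 767 and 764 in Huh7, and neither passed. RRM2B, a p53-inducible subunit of ribonucleotide reductase, averaged 70.7 ± 3.42 after COP1 siRNA and 35.4 ± 12 in controls on the Hep3B-labelled arrays (SD, n = 4 each), a fold change of 0.41 ± 0.09 (adjusted p = 0.0031). In Huh7, RRM2B had 28.7, 33.2 and 63.0 after COP1 siRNA, against 24.5, 26.0 and -10.8 in controls. Every COP1 siRNA array there was above every control, but the fold change of 0.42 did not pass (adjusted p = 0.28). HepG2 levels of RRM2B were near background, with 0 of 4 arrays above it after COP1 siRNA and 1 of 4 in controls. DDB2 did not pass in any line, with fold changes of -0.049, -0.13 and 0.059 on Hep3B-labelled, Huh7 and HepG2 arrays.

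Of the 13 cell death genes tested, TP53I3 (probe ILMN_2358919) had the smallest adjusted p of any member in HepG2. It had 2213, 2646, 2247 and 2112 after COP1 siRNA, against 1194, 1244, 1313 and 1228 in controls. The values on the Hep3B-labelled arrays were 488, 438, 462 and 396, against 538, 560.3, 529 and 584, and in Huh7 366, 436 and 253, against 192, 279.5 and 246. All HepG2 COP1 siRNA arrays were above their controls, all Hep3B-labelled ones were below theirs, and the Huh7 groups overlapped. The fold change was -0.27 ± 0.09 on the Hep3B-labelled arrays (adjusted p = 0.028), 0.43 ± 0.21 in Huh7 (adjusted p = 0.24) and 0.85 ± 0.11 in HepG2 (adjusted p = 5.1e-06). A second, dim TP53I3 probe gave 0.07 ± 0.11 in HepG2 (adjusted p = 0.73) and did not pass.

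TRIAP1 (probe ILMN_1774083) rose in HepG2 and on the Hep3B-labelled arrays. It had 1573, 2168, 1911 and 1618 after COP1 siRNA in HepG2, against 1229, 1289, 1116 and 925 in controls. The Hep3B-labelled arrays had 1336, 1375, 1659 and 1368, against 948, 1131, 877 and 916. Both pairs of groups were fully apart, with fold changes of 0.53 ± 0.10 on the Hep3B-labelled arrays (adjusted p = 0.00065) and 0.64 ± 0.13 in HepG2 (adjusted p = 0.00071). In Huh7 it had 446, 397 and 236 after COP1 siRNA and 267, 279 and 246 in controls, and the array that stood apart was again the lowest.

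TP53INP1 (probe ILMN_2214197) changed in every line. It fell in Huh7 to 105, 83.8 and 170.3, against 301, 351 and 339.9 in controls. It fell in HepG2 to 212, 206, 254 and 211, against 271, 291, 298 and 343 in controls. It rose on the Hep3B-labelled arrays to 93.4, 107, 99.4 and 112, against 53.1, 83.4, 71.7 and 58.9 in controls. In none of the lines did the groups overlap. The fold change was 0.33 ± 0.09 on the Hep3B-labelled arrays, -1.08 ± 0.19 in Huh7 and -0.34 ± 0.11 in HepG2 (adjusted p = 0.012, 0.013 and 0.026).

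CYFIP2, a p53-inducible protein that binds actin regulators, fell in Huh7 and rose on the Hep3B-labelled arrays. In Huh7 it had 369, 337 and 507 after COP1 siRNA, against 741, 765 and 859 in controls (-0.86 ± 0.18, adjusted p = 0.022). CYFIP2 on the Hep3B-labelled arrays was 1024, 1243, 1176 and 1355, against 1070.3, 883, 843 and 941, with some overlap (0.33 ± 0.10, adjusted p = 0.02). HepG2 had 2033, 1644, 1752 and 1966 after COP1 siRNA and 1636, 1459, 1839 and 1707 in controls on this probe, which did not pass. A dimmer CYFIP2 probe disagreed there, with 225, 294, 357 and 258 after COP1 siRNA, against 150.3, 171, 134 and 159 in controls (0.64 ± 0.12, adjusted p = 0.00044). That probe gave 0.25 ± 0.09 on the Hep3B-labelled arrays and -0.54 ± 0.19 in Huh7, the same directions as the brighter one.

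PHLDA3 fell on the Hep3B-labelled arrays to 411, 466, 386 and 429, against 507, 575, 496 and 511 in controls (-0.26 ± 0.09, adjusted p = 0.034). In HepG2 it had 651, 951, 726 and 613, against 525, 516, 647 and 540.0, mostly higher but short of the threshold (0.35 ± 0.13, adjusted p = 0.053), and Huh7 was at background on 6 of 6 arrays. PMAIP1, the BH3-only protein NOXA, rose on the Hep3B-labelled arrays, with a mean of 154 ± 12.2 after COP1 siRNA and 101 ± 11.9 in controls (0.38 ± 0.09, adjusted p = 0.0034). ZMAT3, a p53-induced RNA-binding zinc finger protein, rose in Huh7, with 2977 ± 565 after COP1 siRNA and 1731 ± 191 in controls (0.74 ± 0.19, adjusted p = 0.042). Of the other 6 cell death genes, AEN, BAX, BBC3, EDA2R, SPATA18 and TNFRSF10D, 0 passed in any line on their brightest probe. A dimmer BAX probe was lower on the Hep3B-labelled arrays (-0.46 ± 0.09, adjusted p = 0.0015), where the brightest gave 0.14 ± 0.10 (adjusted p = 0.33). BBC3 was above background on 1 of 4 Hep3B-labelled and 2 of 4 HepG2 arrays after COP1 siRNA and on 0 of 4 controls of each. TNFRSF10D, a decoy receptor for the death ligand TRAIL, was above background on every array and had fold changes of 0.13 on Hep3B-labelled, -0.17 on Huh7 and 0.10 on HepG2 arrays.

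SESN1 (probe ILMN_1800626) rose in HepG2 and on the Hep3B-labelled arrays, while SESN2 fell in Huh7 and on the Hep3B-labelled arrays. SESN1 had 233, 233, 228 and 232 after COP1 siRNA on the Hep3B-labelled arrays, against 161, 162, 153 and 143 in controls (0.42 ± 0.08, adjusted p = 0.00093). In HepG2 it had 1262, 1435, 1635 and 1378, against 826, 1171, 1182 and 1138 (0.39 ± 0.12, adjusted p = 0.027). All COP1 siRNA arrays were above all controls in every line, Huh7 included, where SESN1 had 197, 176 and 300.1 against 85.3, 133 and 124 and did not pass (0.65 ± 0.20, adjusted p = 0.08). SESN2 fell on the Hep3B-labelled arrays to 15, 39.4, 31.7 and 20.0, against 66.3, 49.3, 58.9 and 45.3 in controls (-0.36 ± 0.10, adjusted p = 0.01). In Huh7 it fell to 29.9, -3.0 and 13.6, against 67.3, 83.5 and 125 (-0.92 ± 0.20, adjusted p = 0.026), with 1 of 3 COP1 siRNA arrays above background and a value that ran from -1.88 to -0.78 over the alternatives. In HepG2 it had 109, 115, 89 and 72.5, against 110.4, 112, 161 and 102, with overlap. TIGAR rose on the Hep3B-labelled arrays, with 975 ± 191 after COP1 siRNA and 632 ± 63.4 in controls (0.56 ± 0.12, adjusted p = 0.0018). Its fold changes of 0.31 ± 0.16 in Huh7 and 0.29 ± 0.11 in HepG2 did not pass (adjusted p = 0.27 and 0.075).

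GDF15 fell in all 3 lines. In Huh7 it had 5318, 4187 and 1826 after COP1 siRNA, against 13526, 14690.5 and 13712 in controls (-2.0 ± 0.34, adjusted p = 0.011). GDF15 on the Hep3B-labelled arrays was 813, 929.8, 823 and 783, against 1287, 1284, 1431 and 1415 (-0.65 ± 0.09, adjusted p = 3.3e-05). In HepG2 it had 6173, 6565, 4566 and 4735, against 6463, 8305, 7976 and 7651 (-0.47 ± 0.13, adjusted p = 0.011). The groups were apart in Huh7 and on the Hep3B-labelled arrays, and in HepG2 the highest COP1 siRNA array was just above the lowest control. KITLG rose in Huh7 to 126, 159.5 and 308, against 74.8, 55.8 and 44.6 in controls (0.98 ± 0.24, adjusted p = 0.041), with the array that stood apart the highest. It had 35.7, 10.6, 27.9 and 20.5 against 6.88, 7.67, 3.67 and 14.3 on the Hep3B-labelled arrays and 35.9, 6.46, -1.83 and 19.2 against 24.5, 19.1, 19.3 and 21 in HepG2, mostly at background.

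**Figure D4:**
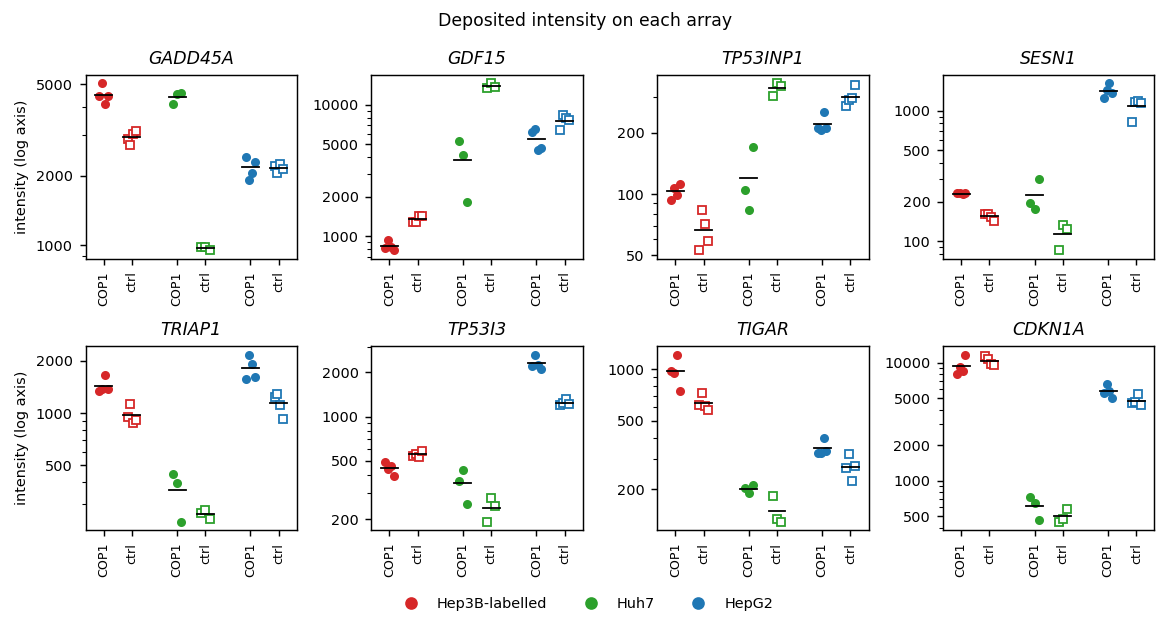
Deposited intensity (log axis) of 8 p53 targets on each array, with COP1 siRNA (filled) left of control siRNA (open) in Hep3B-labelled, Huh7 and HepG2 cells and a bar at each group's mean. GADD45A is apart in Huh7 and on the Hep3B-labelled arrays. TP53I3 is apart in HepG2, where it is higher after COP1 siRNA, and on the Hep3B-labelled arrays, where it is lower. GDF15 is lower after COP1 siRNA in each line, and CDKN1A differs between lines more than between siRNAs.

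An F test over all 22 arrays, of a difference between lines in the size of the change, passed for 14 of 31 members, where 32.0% of all probes passed. This fit assumes that each probe's spread differs between lines only by a weight per line. CDC42EP3, among the 14, was at background on every Huh7 and HepG2 array, so a change there could not have been seen and its result is not read as a difference in response. PHLDA3 was at background on every Huh7 array, PLK2 on all but 1 HepG2 array, and KITLG on most arrays outside Huh7, which limits what their results say of those lines. The others were CCNG1, GADD45A, SERTAD1, SFN, MDM2, XPC, CYFIP2, TP53I3, TP53INP1 and GDF15. For GADD45A, the response on the Hep3B-labelled arrays was 1.5 below that in Huh7 and 0.60 above that in HepG2, and Huh7 exceeded HepG2 by 2.09 (adjusted p = 6.4e-06, 0.00083 and 4.5e-08). The response of TP53I3 on the Hep3B-labelled arrays minus that in HepG2 was -1.12 ± 0.14 (adjusted p = 4.3e-07), while Huh7 minus HepG2 gave -0.42 ± 0.22 and did not pass (adjusted p = 0.21). The fall of GDF15 was larger in Huh7, with -1.53 ± 0.30 for Huh7 minus HepG2 (adjusted p = 0.0007). For Hep3B-labelled minus HepG2 it was -0.18 ± 0.19, with a 95% interval of -0.57 to 0.21, and did not pass (adjusted p = 0.53). TP53INP1 differed in each pair, by 1.41 ± 0.21 for Hep3B-labelled minus Huh7, 0.68 ± 0.14 for Hep3B-labelled minus HepG2 and -0.74 ± 0.22 for Huh7 minus HepG2 (adjusted p = 3.4e-05, 0.00045 and 0.021). The last of these calls was lost without Huh7 COP1 siRNA replicate 2 or Huh7 control replicate 2 or 3 (adjusted p up to 0.103). MDM2 differed between the Hep3B-labelled arrays and HepG2 by 0.94 ± 0.26 (adjusted p = 0.0071). For SESN1, TRIAP1 and CDKN1A no difference between lines passed (F test adjusted p = 0.64, 0.62 and 0.09). By pair, 3 members were higher and 3 lower for Hep3B-labelled minus Huh7, where 7.49% of all probes passed (3.97% higher and 3.53% lower). For Hep3B-labelled minus HepG2, 5 were higher and 6 lower, where 27.8% of all probes passed (14.2% higher and 13.6% lower). For Huh7 minus HepG2, 3 were higher and 4 lower, where 14.9% of all probes passed (8.02% higher and 6.92% lower). Of these calls, 5 of 6, 7 of 11 and 4 of 7 held under all alternatives, in the same order of pairs. Leaving out single arrays ended the calls of TP53I3 for Hep3B-labelled minus Huh7 (adjusted p up to 0.216), of XPC, SERTAD1 and RRM2B for Hep3B-labelled minus HepG2 (up to 0.0816, 0.218 and 0.106), and of CCNG1 and SESN2 for Huh7 minus HepG2 (up to 0.217 and 0.233). These comparisons share control arrays with the levels given above and are not independent of them.

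A second list of 70 other p53 targets, also chosen with earlier results of these data known, was counted for comparison, 60 of which could be tested. Of these, 8 were higher and 15 lower after COP1 siRNA on the Hep3B-labelled arrays, 5 higher and 1 lower in Huh7, and 11 higher and 6 lower in HepG2, against the same backgrounds of 26.4%, 8.88% and 22.8% of all probes. The median log2 fold change of the 60 was -0.089 on the Hep3B-labelled arrays, -0.038 in Huh7 and 0.12 in HepG2. Those with the smallest adjusted p on the Hep3B-labelled arrays were STEAP3, a metalloreductase (1.19 ± 0.08, adjusted p = 2.1e-08), the autophagy gene DRAM1 (1.2 ± 0.09, adjusted p = 3.8e-08) and the signalling adaptor gene TRAF4 (-0.70 ± 0.09, adjusted p = 1.9e-05). In Huh7 they were CROT, a peroxisomal acyltransferase (1.32 ± 0.20, adjusted p = 0.0077), CMBL, a hydrolase (0.84 ± 0.14, adjusted p = 0.011) and DRAM1 (0.74 ± 0.15, adjusted p = 0.019). In HepG2 they were E2F7, a transcriptional repressor of cell cycle genes (-1.13 ± 0.12, adjusted p = 5.0e-07), the lipase gene ABHD4 (0.86 ± 0.12, adjusted p = 2.3e-05) and CROT (0.77 ± 0.13, adjusted p = 9.3e-05). In control cells, 11 of the 60 were higher and 33 lower in Huh7 than in HepG2 (58.9% of all probes passed). On the Hep3B-labelled controls, 16 were higher and 32 lower than in HepG2 (63.5%), and 27 higher and 13 lower than in Huh7 (68.7%). The median log2 differences were -0.38, -0.35 and 0.17. Against HepG2, these targets were lower about as often on the Hep3B-labelled arrays as in Huh7, unlike the 31 members.

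How firmly these calls stand differed by line. In Huh7, GADD45A kept its call under all alternatives, while the other 7 calls were each lost when a single array was left out. Without control replicate 1 or 3, CYFIP2, PLK2, SESN2, GDF15, TP53INP1, KITLG and ZMAT3 no longer passed. Without COP1 siRNA replicate 2 the same genes except GDF15 were lost, as were CYFIP2, SESN2, GDF15, TP53INP1, KITLG and ZMAT3 without control replicate 2 and ZMAT3 without COP1 siRNA replicate 1. Their adjusted p reached 0.079 for GDF15, 0.081 for TP53INP1, 0.12 for CYFIP2, 0.14 for PLK2, 0.13 for SESN2, 0.17 for KITLG and 0.18 for ZMAT3 over all alternatives. Without COP1 siRNA replicate 3, which stood apart, 13 members passed in place of 8 (19.9% of all probes), all 8 among them with the same sign. The 5 gained were SERTAD1 (log2 fold change 1.2), TP53I3 (0.61), TRIAP1 (0.55), CCNG1 (0.67) and SESN1 (0.48), all higher after COP1 siRNA.

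In HepG2, TP53I3 and TRIAP1 kept their calls under all alternatives, and SFN and GDF15 kept theirs whichever array was left out. MDM2 was lost without COP1 siRNA replicate 1 or 2 or control replicate 2 or 4 (adjusted p up to 0.18 over all alternatives). XPC was lost without COP1 siRNA replicate 1 or 4 or control replicate 2, 3 or 4 (up to 0.1), and SERTAD1 without COP1 siRNA replicate 4 or control replicate 2 or 4 (up to 0.27). SESN1 was lost without COP1 siRNA replicate 3 or control replicate 1 (up to 0.13) and TP53INP1 without COP1 siRNA replicate 1 or 4 or control replicate 4 (up to 0.099). On the Hep3B-labelled arrays, GADD45A, TRIAP1, TIGAR, SESN1 and GDF15 kept their calls under all alternatives. Leaving out an array ended the calls of PHLDA3 (COP1 siRNA replicate 1 or 3, control replicate 1, 2 or 4; up to 0.18) and of CYFIP2 (COP1 siRNA replicate 2 or 4, control replicate 2 or 3; up to 0.061). It also ended those of TP53I3 (replicate 2 or 4 of either siRNA; up to 0.14) and of PLK2 (any array but control replicate 1; up to 0.28). The other 6 Hep3B-labelled calls held whichever array was left out.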

How the data were processed

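RNA of 22 arrays was measured on Illumina HumanRef-8 v3 bead arrays and exported with GenomeStudio 2009.1, per the submitters' processing notes. The deposited values are linear intensity, 23.7% of them below 0, and the array medians lie between 24.3 and 24.5. That the authors subtracted background and equalised the distributions was read from these values, since the step is not given in the sources used here. Another 44 per-sample columns of raw signal could not be tied to single samples and were not used. No genome build is named in the files.

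Intensities were corrected with normexp (offset 50), put on the log2 scale and quantile-normalised with limma 3.58.1 in R 4.3.3, so fold changes of dim probes are understated. The background limit of 21.8 is the 0.98 quantile of the sizes of the negative values, a rule chosen after the tables were seen. Probes above it on at least 3 arrays were tested. Each line was fitted alone for the siRNA comparison. Control lines were fitted on 11 control arrays. Differences between lines and the F test used all 22 arrays with a weight per line, since the spread differed between lines. P-values were adjusted by Benjamini-Hochberg over all 16563 probes, and "passed" means an adjusted p under 0.05. Values after ± are SE for log2 differences and SD for intensities. The number of arrays limits the precision.

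Members and lists were chosen with earlier results of these data known. Values on every array are given for members that passed in at least 2 lines, in 1 line with an absolute log2 fold change of at least 1, or in the F test. Of the second list, the 3 with the smallest adjusted p per line are named. CDKN1A is given as the member with the widest baseline range. The fits were run on simulated arrays with independent normal noise. None of these stood apart as Huh7 COP1 siRNA replicate 3 did, so that run says nothing on the effect of such an array. Alternatives covered background, normalisation, filter, probe choice, threshold, samples in the fit, weights, the replicate number as a block and each array left out.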

Additional observations from a re-analysis of the deposited data

Results flagged for a closer look

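Of the 124 groups of 4 arrays tested for a value far from the rest, 8 held one, where chance alone gives about 1 in 20. After COP1 siRNA on the Hep3B-labelled arrays, MDM2 had a low replicate 4 at 68.94 intensity units and TRIAP1 a high replicate 3 at 1659. In their controls, replicate 2 was low for BAX at 868.4, replicate 3 high for PLK3 at 102.1 and replicate 4 low for PMAIP1 at 83.04. In HepG2 after COP1 siRNA, replicate 3 was high for TIGAR at 396.9 and for TP53INP1 at 254. In HepG2 controls, replicate 1 was low for SESN1 at 826.3, and without it the SESN1 call was lost.

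Limma's F test of a difference between the 3 lines in the response to COP1 siRNA passed for 14 members. The adjusted p was 2.89e-08 for GADD45A, 1.33e-06 for TP53I3, 6.49e-06 for TP53INP1, 0.000259 for PLK2, 0.000542 for CYFIP2 and 0.000643 for GDF15. It was 0.00244 for SFN, 0.00527 for KITLG, 0.0071 for PHLDA3, 0.0124 for MDM2 and 0.0176 for SERTAD1. CDC42EP3 gave 0.0118, which is not read as a difference in response, since it was at background on every Huh7 and HepG2 array. CCNG1 at 0.0486 and XPC at 0.0452 were nearest to the threshold, and over the alternatives they reached 0.164 and 0.114.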

How the results depend on the processing

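No call of a member reversed under any alternative run, and in 314 pairings of a call with a setting the call was lost. The count of all probes called in Huh7 (1470) was 345 at an adjusted p under 0.01, 963 with floored values, 4979 with 1 shared spread, 6105 with array weights and 225 to 3293 when an array was left out. The members called there (8) were 1, 3, 14, 19 and 1 to 13 under the same settings in the same order, and the other p53 targets 1 at the stricter threshold, 18 with a shared spread, 26 with array weights and 0 to 13 with an array left out. At the stricter threshold HepG2 gave 2286 probes, 3 members and 9 other targets, and the Hep3B-labelled arrays 2768, 9 and 15. With a shared spread the Hep3B-labelled arrays gave 2484, 6 and 15. HepG2 gave 5 of 31 members with an offset of 16, with floored values and with a shared spread, where 3052, 3014 and 2892 of the 16563 probes passed. With an array left out it gave 5 to 9 members and 10 to 19 other targets, where 2924 to 3517 probes passed. For the differences, the stricter threshold gave 1204 probes, 4 members and 3 other targets for Huh7 minus HepG2, 2896 probes for Hep3B-labelled minus HepG2, and 617 probes and 5 other targets for Hep3B-labelled minus Huh7. Without weights the probes were 4028, 3002 and 2247 in that order, with 7 members for Hep3B-labelled minus HepG2 and 13 other targets for Hep3B-labelled minus Huh7. An offset of 16 gave 5 other targets for Huh7 minus HepG2. With an array left out, Huh7 minus HepG2 gave 1191 to 3300 probes, 4 to 9 members and 3 to 10 other targets, and Hep3B-labelled minus Huh7 618 to 2639, 5 to 10 and 4 to 16. The F test at the stricter threshold gave 3298 probes and 9 members. The cause of these shifts was not tested.

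Same-numbered arrays did not deviate together within lines (correlations -0.275 to 0.0952), so the numbers are not taken as pairs. With the replicate block, Huh7 gave 382 probes, 2 members and 1 other target, HepG2 3599 probes and 9 members, and the Hep3B-labelled arrays 3695 and 12. Hep3B-labelled minus Huh7 gave 778 probes and Huh7 minus HepG2 3 other targets with the block. The alternatives for the other p53 targets were added after seeing the data. Dim probes near the background limit, among them BBC3, KITLG and PLK2 in HepG2, allow no statement on their level.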
